A study of Mus musculus with 8 samples.

Results

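Semaphorins, plexins, neuropilins, ephrins, Eph receptors, Slits, Robos, netrins and Unc5 receptors, the ligands and receptors of axon guidance, were followed in RNA sequencing libraries of cultured mouse dermal fibroblasts. Members were taken by gene symbol alone, and 60 of the 15111 genes in the deposited table belonged to these families. They comprise 19 semaphorins, 2 neuropilins, 9 plexins, 8 ephrins, 10 Eph receptors, 3 Slits, 4 Robos, 2 netrins and 3 Unc5 receptors, or 32 ligands and 28 receptors. A further 12 annotated genes with such symbols, among them *Epha6*, *Ephb1*, *Sema5b* and *Unc5d*, are not among the rows and were not analysed here. They were also taken by symbol alone and include antisense transcripts such as *Plxna4os1*, so not all are ligands or receptors. The study asked how loss of *Tgfb1* from fibroblasts alters their gene expression. Control cells carried the genotype Tgfb1fl/fl, that is floxed *Tgfb1* alleles without Cre recombinase, and TGFβ1FKO cells the genotype Tgfb1fl/fl:Col1a2-CreERT, in which tamoxifen activates a Cre recombinase driven by the *Col1a2* promoter. All donors of both groups were adult mice fed tamoxifen, so only TGFβ1FKO cells carry the transgene and the agent is shared. Cells were released from back skin with the epidermis left on and were kept for 72 h in serum replacement medium on fibronectin before RNA was taken. Each group holds 4 libraries, and neither the labels nor the methods state that each library came from a separate mouse, so that p-values measure the spread between these libraries, which may be technical.

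These families were first described as cues that steer growing axons, mostly by contact or by short-range diffusion. Class 3 semaphorins are secreted and signal through neuropilins bound to class A plexins, whereas most other semaphorins are anchored in the membrane and bind plexins directly. Ephrins are membrane-bound ligands of the Eph receptor tyrosine kinases and can also signal back into the cell that carries them, Slits are secreted ligands of Robo receptors, and netrins bind Dcc, neogenin and the Unc5 receptors. In skin the same proteins act on the growth of nerves and blood vessels and on the contacts between cells, and fibroblasts express many of them.

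Reads on the listed genes summed to 16988998 to 21806579 per control library and 17445002 to 23071528 per TGFβ1FKO library. The values given below are normalised counts, that is reads divided by a size factor for the library, and errors are SD over the 4 libraries of a group. *Tgfb1* had 1374 ± 85.4 normalised counts in control and 277 ± 42.5 in TGFβ1FKO fibroblasts, so that the target gene was low in all libraries labelled TGFβ1FKO. All 10 fibroblast markers on a hand-written list were in the table, with a summed level per length of 32065 to 37825 TPM (reads per base of exon scaled to one fixed total in every library) in controls and 33046 to 36539 TPM in TGFβ1FKO cells, and for 0 of them the unadjusted p-value was under 0.05. Markers of other cells were sparse by comparison. The 4 of 10 keratinocyte markers in the table summed to 6.47 to 8.58 in controls and 6.75 to 8.47 in TGFβ1FKO cells, with *Krt5* and *Krt14* among those not in it and 2 of the 4 higher at an unadjusted p-value under 0.05. The 5 of 10 macrophage markers summed to 60.9 to 72.9 against 36.5 to 67.9, and the 3 of 7 melanocyte markers to 10.1 to 23.0 against 8.71 to 15.3, with 0 of either list at an unadjusted p-value under 0.05. The 15 of 16 endothelial markers summed to 26.1 to 45.4 against 23.5 to 30.2, all 15 with a log2 fold change below 0 and 2 with an unadjusted p-value under 0.05. Their median log2 fold change was -0.47. The 7 of 9 pericyte markers summed to 42.8 to 66.0 against 36.9 to 58.6, with 1 lower at an unadjusted p-value under 0.05. At that unadjusted p-value, 3.87% of the whole table was lower and 3.59% higher.

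Levels of different genes were compared per length. Length was taken over all annotated exons of a gene merged, so that ranks and shares between genes depend on it. On the TPM scale the 60 members covered a range from 0.0547 (*Epha5*) to 451 (*Slit3*) over all libraries, with 27 members above 10 and 8 below 1. The 8 highest, *Slit3*, *Plxnb2*, *Plxna1*, *Unc5b*, *Efnb1*, *Efnb2*, *Ephb4* and *Ephb3*, held 69.2% of the summed level of all members. These cultures carried the RNA of a secreted Slit, of B-type ephrins together with the EphB receptors they bind, of class A and B plexins and of a netrin receptor at the top of the list. Of the B-type ephrins, *Efnb1* (83.8 ± 3.33 in controls) and *Efnb2* (86.1 ± 9.45) differed by less than their spread, and the same held for *Nrp2* (44.8 ± 4.92), *Ntn4* (46.5 ± 6.20) and *Sema3c* (45.4 ± 9.11). In contrast, Robo receptors were low beside *Slit3* and *Slit2*, with *Robo1* at 8.74 ± 1.36 against 422 ± 51.0 for *Slit3* in controls. The merged exons held 16511 bases in *Robo1* and 6067 in *Slit3*.

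**Figure D1:**
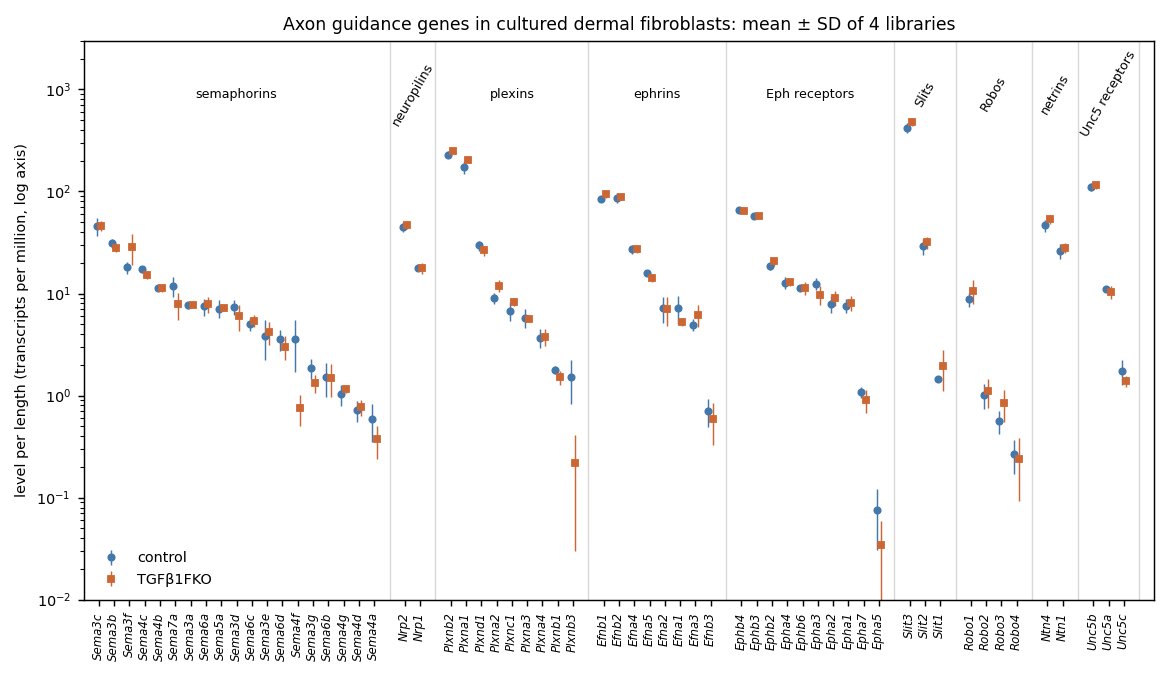
Level per length in TPM (log axis) for each of the 60 axon guidance genes, grouped by family and ordered by level, with circles for the mean of 4 control and squares for the mean of 4 TGFβ1FKO libraries and bars for the SD. *Slit3* is highest at 422 in controls and *Epha5* lowest, and of all members *Sema4f* and *Plxnb3* show the widest distance between the symbols.

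Groups were compared in a limma fit over all 15111 genes on log2(normalised count + 1), and a gene was called if its Benjamini-Hochberg adjusted p was under 0.05 and its absolute log2 fold change over 0.6. By this rule 13 genes of the table were called, 0.086% of it, and 0 of the 60 members. Fitted to the recovered reads, edgeR's quasi-likelihood test and DESeq2's test against 0 and against 0.6 each called 1 member, *Sema4f*, where they called 0.132%, 0.371% and 0.0993% of the table. The paper's own test was DESeq2, at an adjusted p of 0.05 and a log2 fold change of 0.6. Both DESeq2 tests used here are closer to it than limma's. Before adjustment 13 members had a limma p under 0.05, or 21.7%, compared with 7.46% of the table. Of these, 6 were lower in TGFβ1FKO cells (3.87% of the table was lower at this p), namely *Sema3g*, *Sema4c*, *Sema4f*, *Sema7a*, *Plxnb3* and *Epha3*. The other 7 were higher (3.59% of the table), namely *Sema3f*, *Plxna1*, *Plxna2*, *Plxnc1*, *Efnb1*, *Slit3* and *Ntn4*. Without control replicate 3 the number of members at this p was 7. In 3 members, or 5%, compared with 3.79% of the table, the libraries of the groups did not overlap, *Sema4f* and *Plxnb3* being lower (2.1% of the table) and *Efnb1* higher (1.69%).

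Across the families the differences went both ways. Of the 60 members, 27 were lower and 33 higher, and the median log2 fold change was 0.01, compared with 0.00 over the whole table. An absolute log2 fold change under 0.2 was found in 35 of the 60 members, a smaller share than the 11612 of 15111 genes in the whole table. One over 0.6 was found in 5 of the 60, namely *Sema4f*, *Plxnb3*, *Epha5*, *Sema7a* and *Sema3f*. This is a larger share than the 688 genes, or 4.55%, of the table. The 95% interval of the log2 fold change lay within -0.6 and 0.6 in 35 members, so that for these genes a change of that size lies outside the interval. The 32 ligands had a median of 0.02 and the 28 receptors of 0.01. Summed over all members, the level per length was 1675 to 1927 TPM in controls and 1753 to 2037 in TGFβ1FKO cells, and these ranges overlapped.

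**Figure D2:**
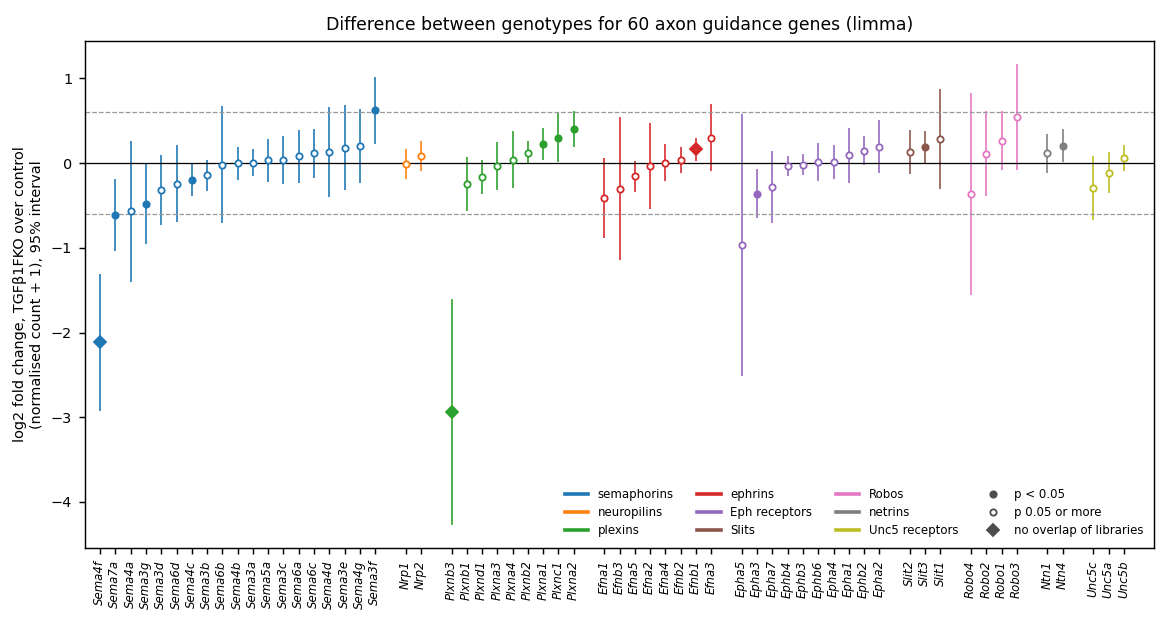
Log2 fold change of TGFβ1FKO over control fibroblasts with its 95% interval for the 60 members in limma's test, coloured by family. Filled symbols mark an unadjusted p-value under 0.05, diamonds mark genes without overlap of the libraries, and dashed lines mark -0.6 and 0.6. *Plxnb3* at -2.93 and *Sema4f* at -2.12 lie far below the other members, and the highest is *Sema3f* at 0.63.

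*Sema4f* and *Plxnb3* had the largest differences. *Sema4f* (ENSMUSG00000000627, chromosome 6, 82911885 to 82939769, minus strand of GRCm38) encodes a transmembrane class 4 semaphorin, and *Plxnb3* (ENSMUSG00000031385, chromosome X, 73757090 to 73772514, plus strand) a class B plexin known as a receptor of Sema5a. Normalised counts of *Sema4f* were 86.9, 113, 179 and 46.4 in control replicates 1 to 4 and 24.3, 11.4, 25.7 and 27.7 in TGFβ1FKO replicates 1 to 4. All TGFβ1FKO libraries lay below all controls, and control replicate 4, the lowest control, was 1.68 times the highest TGFβ1FKO library. The controls themselves spread 3.85-fold. The means were 106 ± 55.4 (SD, n = 4) and 22.3 ± 7.40 (SD, n = 4), which left 21.0% of the control level. The exact two-sided permutation p was 0.0286, the minimum for 4 libraries against 4, which every gene without overlap reaches. The log2 fold change of *Sema4f* amounted to -2.12 (SE 0.37, limma adjusted p = 0.0649). *Sema4f* therefore missed the threshold in limma's test and passed it in edgeR's quasi-likelihood test (adjusted p = 0.0497) and in DESeq2's test against 0.6 (adjusted p = 0.00809). With 1 library left out in turn, its log2 fold change ranged from -2.46 to -1.81 and the adjusted p in limma's test from 0.00682 to 0.275, the only fit under the threshold being the one without control replicate 4.

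*Plxnb3* had 62.8, 56.3, 83.2 and 20.7 normalised counts in control replicates 1 to 4 and 13.2, 3.11, 14.9 and 1.11 in TGFβ1FKO replicates 1 to 4. Again the groups did not overlap and control replicate 4 was the lowest control, at 1.39 times the highest TGFβ1FKO library. TGFβ1FKO replicates 2 and 4 held 3 reads and 1 read of this gene, so that their values rest on counts at or under the limit of 3 reads used here. The means were 55.8 ± 26.0 (SD, n = 4) and 8.08 ± 6.99 (SD, n = 4), or 14.5% of the control level, with a log2 fold change of -2.93 (SE 0.62, limma adjusted p = 0.15). On the recovered reads it was -2.70 with edgeR and -2.77 with DESeq2. It was not called by edgeR (adjusted p = 0.103), by DESeq2 against 0 (adjusted p = 0.0598) or with any library left out (adjusted p from 0.0549 to 0.58 in limma's test). A limma fit with the replicate number as a block did call *Plxnb3*. Per length both genes were low: *Sema4f* had 3.59 TPM in controls and 0.751 in TGFβ1FKO cells, and *Plxnb3* 1.54 and 0.220, ranks 45 and 54 among the 60 members.

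Sequences before the transcription starts of these genes are shown because they had the largest differences of all members and were both lower. Each run holds the 250 bases before the RefSeq start (GRCm38.p6), 5′ to 3′ on the strand of the gene, at chr6:82939770-82940019 on the minus strand for *Sema4f* and chrX:73756853-73757102 on the plus strand for *Plxnb3*. Capitals mark matches on either strand to CAGAC, the core of the Smad box bound by the transcription factors of the TGFβ pathway, and to ACAATG and ACAAAG, core motifs of SOX factors.
Sema4f: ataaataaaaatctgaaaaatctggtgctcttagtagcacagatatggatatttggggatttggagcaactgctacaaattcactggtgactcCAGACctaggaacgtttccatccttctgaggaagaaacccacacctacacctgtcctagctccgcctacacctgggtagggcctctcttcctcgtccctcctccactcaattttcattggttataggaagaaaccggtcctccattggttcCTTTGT
Plxnb3: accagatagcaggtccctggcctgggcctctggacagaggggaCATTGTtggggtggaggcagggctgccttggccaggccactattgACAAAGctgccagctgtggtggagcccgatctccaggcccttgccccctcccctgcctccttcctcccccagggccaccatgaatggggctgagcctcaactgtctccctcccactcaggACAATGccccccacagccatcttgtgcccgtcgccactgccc
The *Sema4f* window holds 1 CAGAC and 1 ACAAAG, which is read on the other strand at the end of the run, and has 46% G and C. The *Plxnb3* window holds 2 ACAATG and 1 ACAAAG and has 65.2% G and C. Neither holds TGANTCA, the AP-1 motif, and the marked matches do not overlap. Such short motifs are frequent: of 32851 promoters of the same length, 42.2% hold CAGAC, 10.7% ACAATG, 16.5% ACAAAG and 6.75% TGANTCA. Among the 68 promoters of the 52 members that could be matched, the shares were 50%, 8.82%, 10.3% and 4.41%. A match is a description of letters and does not show binding.

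*Sox10*, *Foxd3* and further genes of Schwann cells, the glia that ensheathe nerves, were also lower in TGFβ1FKO cells. *Sox10*, a transcription factor of glia and melanocytes, had 132, 148, 207 and 72.1 normalised counts in control replicates 1 to 4 and 19.3, 7.25, 18.3 and 21.1 in TGFβ1FKO replicates 1 to 4 (log2 fold change -3.01, limma adjusted p = 0.00499). *Foxd3*, a factor of neural crest and glia, had 50.8, 61.6, 119.8 and 36.5 in controls and 3.04, 8.28, 9.13 and 4.43 in TGFβ1FKO cells (log2 fold change -3.20, limma adjusted p = 0.00757). Of 24 Schwann cell markers on a hand-written list, 19 were in the table, 16 of them lower and 3 higher, 14 lower at an unadjusted p-value under 0.05 (3.87% of the table), with *Foxd3* and *Sox10* among those called in limma's test. Control replicate 3 was the highest and control replicate 4 the lowest of the controls in 4 members, *Sema4f* and *Plxnb3* among them. These are 6.67% of all members, a smaller share than the 9.97% of the table with this order. The order was also found in 10 of the 19 markers (*Sox10*, *Foxd3*, *Erbb3* and *L1cam* among them). Other markers had another order, such as *Plekhb1* and *Mal*, which were lowest in control replicate 1, and this order was noted after the values had been seen. The myelin gene *Mag* is not among the rows. Summed per length, the markers reached 722 to 794 TPM in controls and 633 to 809 in TGFβ1FKO cells, of which *Pmp22*, also expressed by fibroblasts, made up 67.4% to 83.2%. Without *Pmp22* the sums were 178 to 246 in controls and 136 to 184 in TGFβ1FKO cells. Of 10 neuronal markers 3 were in the table, with sums of 31.9 to 68.9 and 31.7 to 69.6 and 0 of them at an unadjusted p-value under 0.05. In bulk RNA fewer cells of a type and less RNA per cell cannot be told apart, and the part that Schwann cell RNA has in the values of *Sema4f* and *Plxnb3* was not tested.

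**Figure D3:**
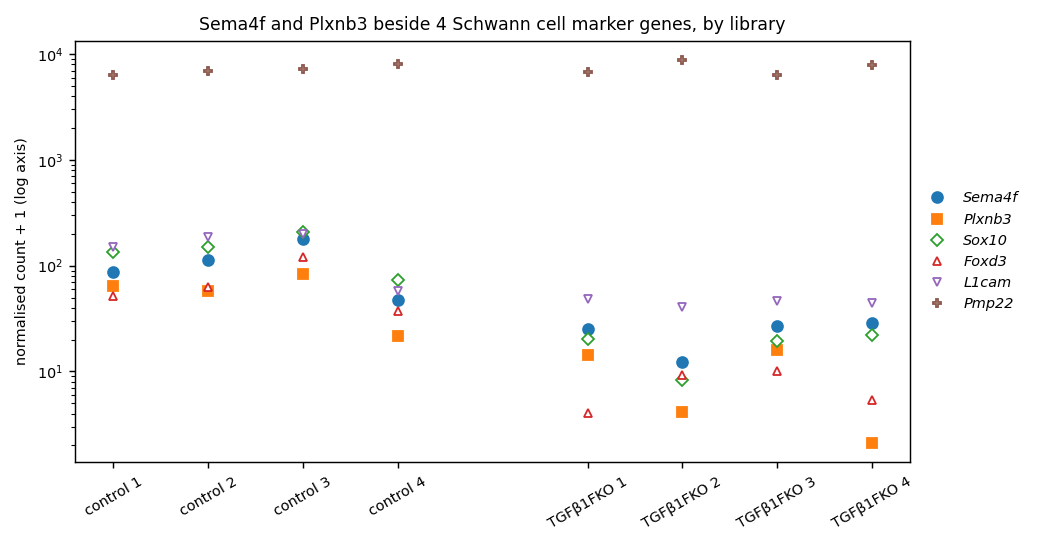
Normalised count + 1 (log axis) of *Sema4f* and *Plxnb3* (filled symbols) and of 4 Schwann cell markers in each of the 4 control and 4 TGFβ1FKO libraries. The markers *Sox10*, *Foxd3*, *L1cam* and *Pmp22* were picked by hand from 19, of which 16 were lower and 3 higher. All genes shown but *Pmp22* lie lower in the TGFβ1FKO libraries. In *Sema4f*, *Plxnb3*, *Sox10*, *Foxd3* and *L1cam* control replicate 4 is the lowest control.

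Among the secreted class 3 semaphorins, *Sema3f* was higher and *Sema3g* lower in TGFβ1FKO cells, both at an unadjusted p-value only. *Sema3f* (ENSMUSG00000034684, chromosome 9, 107681500 to 107710475, minus strand), a ligand of neuropilin-2 that repels axons and endothelial cells, had 469.7, 489, 505 and 632 normalised counts in control replicates 1 to 4 and 584, 1187, 654 and 919.6 in TGFβ1FKO replicates 1 to 4. Control replicate 4 lay above TGFβ1FKO replicate 1, and TGFβ1FKO replicates 2 and 4 stood above all other libraries, so that the SD was 73.6 in controls and 275 in TGFβ1FKO cells. The log2 fold change amounted to 0.63 (SE 0.18, unadjusted p = 0.00463, limma adjusted p = 0.464). *Sema3g* (ENSMUSG00000021904, chromosome 14, 31217860 to 31230352, plus strand), also a neuropilin ligand, had 61.1, 46.7, 44.4 and 37.5 in controls and 35.5, 24.9, 40.7 and 33.2 in TGFβ1FKO cells, with TGFβ1FKO replicate 3 above control replicate 4 (log2 fold change -0.49, limma adjusted p = 0.658). *Sema3c* and *Sema3b* were the most abundant semaphorins per length, at 45.4 and 30.9 TPM in controls. *Sema3c*, a ligand of both neuropilins, had 1751, 1962, 1336 and 2206 normalised counts in controls and 1951, 1832, 1547 and 2041 in TGFβ1FKO cells, and its log2 fold change of 0.04 changed sign when control replicate 3 or TGFβ1FKO replicate 4 was left out. For *Sema3b* the counts were 764, 796, 794 and 955 in controls and 751, 779.8, 661 and 801 in TGFβ1FKO cells, with a log2 fold change of -0.14 and overlap of the groups. *Sema3a*, the prototype of the class, differed by 0.01 on the log2 scale, with a 95% interval from -0.15 to 0.16.

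Class 4 and class 7 semaphorins are held in the membrane. *Sema4c* (ENSMUSG00000026121, chromosome 1, 36548639 to 36558349, minus strand), a ligand of plexin-B2, had 471, 475, 439 and 406 normalised counts in control replicates 1 to 4 and 405, 339, 413 and 402 in TGFβ1FKO replicates 1 to 4. The groups met at control replicate 4, which lay below TGFβ1FKO replicate 3, and the log2 fold change was -0.20 (SE 0.09, limma adjusted p = 0.654). *Sema7a* (ENSMUSG00000038264, chromosome 9, 57940112 to 57962865, plus strand), a GPI-anchored ligand of plexin-C1 and of β1 integrins, had 159, 234, 275 and 209 in controls and 118, 112, 202 and 145 in TGFβ1FKO cells. Only TGFβ1FKO replicate 3 reached into the control range, and the log2 fold change amounted to -0.62 (SE 0.20, unadjusted p = 0.00824, limma adjusted p = 0.536). The level per length summed over the 6 class 4 semaphorins was 31.2 to 36.2 TPM in controls and 27.8 to 30.6 in TGFβ1FKO cells. These ranges did not overlap, but the sum includes *Sema4f* and *Sema4c*, which were already named for their lower values. On average *Sema4c* had 17.4 TPM in controls and 15.1 in TGFβ1FKO cells, and *Sema4f* 3.59 and 0.751. *Sema4b*, the most abundant of the other class 4 members, had 11.3 in both groups. The sum is therefore not a result separate from *Sema4f* and *Sema4c*. The remaining semaphorins of classes 4, 5 and 6 had log2 fold changes from -0.57 (*Sema4a*, mean count under 50) to 0.20 (*Sema4g*). *Sema5a*, the ligand of plexin-B3, had a log2 fold change of 0.03.

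**Figure D4:**
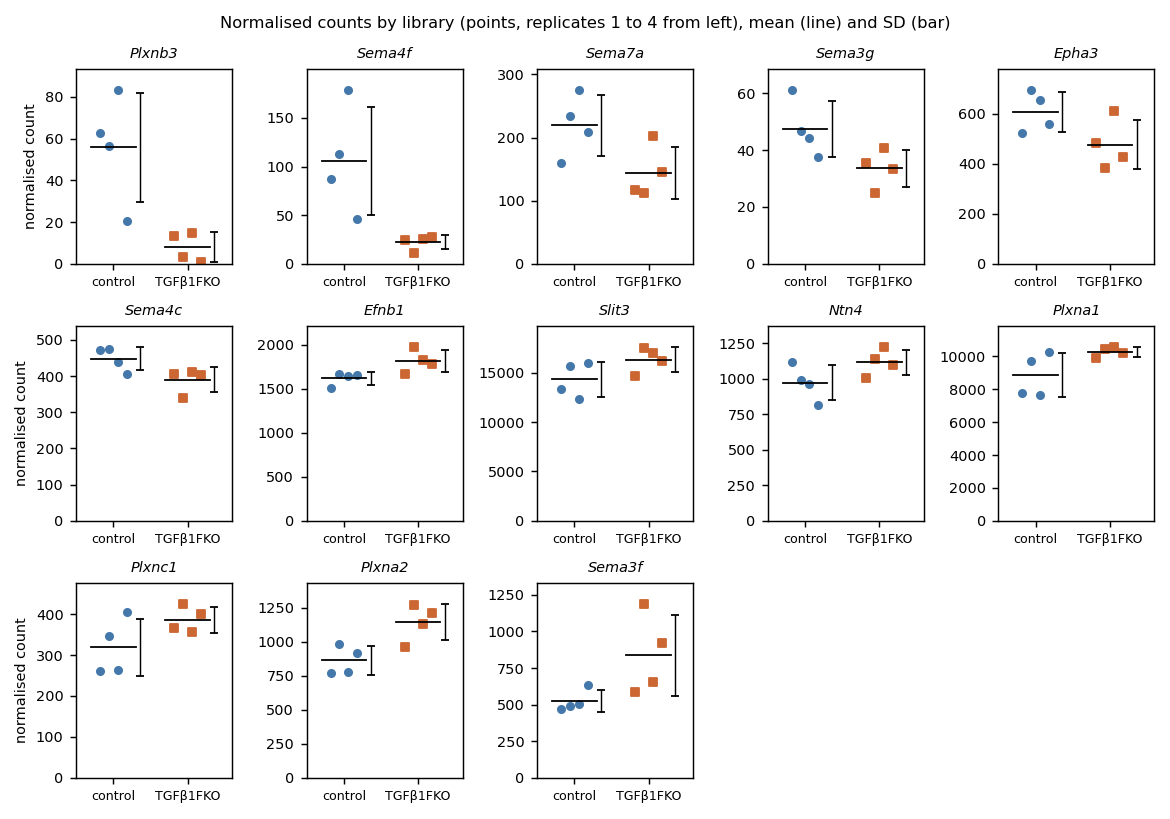
Normalised counts in each library for the 13 members with a limma p under 0.05 before adjustment, ordered by log2 fold change, with controls as circles and TGFβ1FKO libraries as squares. Lines are means and bars at the side are SD over 4 libraries. The groups do not overlap in *Plxnb3*, *Sema4f* and *Efnb1*, and in the other 10 genes at least 1 library lies within the range of the other group.

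Neuropilins and class A plexins form the receptors of class 3 semaphorins, and neuropilins also bind vascular endothelial growth factor. *Nrp1* had 956, 1090.1, 943 and 927 normalised counts in controls and 917, 883, 1138 and 961 in TGFβ1FKO cells. *Nrp2* had 2458, 3133, 3063 and 3217 in controls and 2860.4, 3389, 3168 and 3131 in TGFβ1FKO cells. The groups overlapped in both, with log2 fold changes of -0.01 and 0.09, and their 95% intervals lay between -0.19 and 0.26. *Plxna2* (ENSMUSG00000026640, chromosome 1, 194618218 to 194816869, plus strand) had 773, 985, 776 and 915 in control replicates 1 to 4 and 959.9, 1267, 1133 and 1211 in TGFβ1FKO replicates 1 to 4. Only control replicate 2 lay above a TGFβ1FKO library, replicate 1. Of the members that were higher it had the smallest p-value (log2 fold change 0.41, SE 0.10, unadjusted p = 0.00129, limma adjusted p = 0.288). *Plxna1* (ENSMUSG00000030084, chromosome 6, 89316314 to 89362620, minus strand), the most abundant class A plexin, had 7767, 9728, 7663 and 10285 in controls and 9910.2, 10449, 10551 and 10189 in TGFβ1FKO cells. Control replicates 1, 2 and 3 lay below all TGFβ1FKO libraries, whereas control replicate 4 lay within their range (log2 fold change 0.23, limma adjusted p = 0.632). Summed per length, the 4 class A plexins reached 167 to 222 TPM in controls and 206 to 232 in TGFβ1FKO cells, ranges that overlapped.

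*Plxnb2*, the receptor of class 4 semaphorins with the highest level of all plexins, had 9049, 10574, 9303 and 10614 normalised counts in controls and 10729, 10688, 11039 and 10514 in TGFβ1FKO cells. Its groups overlapped (log2 fold change 0.12, 95% interval -0.01 to 0.26), in contrast to *Plxnb3* of the same class. *Plxnb1* had a log2 fold change of -0.24 and *Plxnd1*, a plexin known from blood vessels, of -0.16. *Plxnc1* (ENSMUSG00000074785, chromosome 10, 94790866 to 94944835, minus strand), the receptor of Sema7a, had 261, 346, 263 and 405 in controls and 366, 425, 355 and 400.0 in TGFβ1FKO cells. Here control replicates 1 and 3 were again the lowest libraries and control replicate 4 lay within the TGFβ1FKO range (log2 fold change 0.30, SE 0.13, limma adjusted p = 0.658). Set side by side, the ligand *Sema7a* had a log2 fold change of -0.62 and its receptor *Plxnc1* of 0.30, and neither was called.

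*Efnb1*, *Efnb2*, *Ephb3* and *Ephb4* were abundant, and their log2 fold changes lay between -0.04 and 0.16. *Efnb1* (ENSMUSG00000031217, chromosome X, 99136130 to 99148991, plus strand), a transmembrane ligand of EphB receptors, had 1508.9, 1670.2, 1642.2 and 1655.2 normalised counts in control replicates 1 to 4 and 1670.4, 1973.9, 1831.0 and 1784.9 in TGFβ1FKO replicates 1 to 4. Its groups did not overlap, but control replicate 2 and TGFβ1FKO replicate 1 were almost equal, and with TMM scaling of the libraries they did overlap. The log2 fold change amounted to 0.16 (SE 0.06, unadjusted p = 0.0198, limma adjusted p = 0.606). *Efnb2*, the ligand of EphB4 in vessels, had 3643, 3356, 2819 and 3390.5 in controls and 3222, 3504, 3466 and 3353 in TGFβ1FKO cells, with full overlap and a log2 fold change of 0.04. *Ephb4* had 1656, 1704, 1692 and 1789.6 in controls and 1706, 1657, 1755 and 1548 in TGFβ1FKO cells. *Ephb3* had 2033, 2146, 2106 and 2348 in controls and 2253, 2115, 2044 and 2095 in TGFβ1FKO cells. Their log2 fold changes were -0.04 and -0.02, with 95% intervals between -0.16 and 0.10. Over the 4 EphB receptors the summed level per length was 147 to 163 TPM in controls and 149 to 157 in TGFβ1FKO cells.

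A-type members were less abundant. *Epha3* (ENSMUSG00000052504, chromosome 16, 63543534 to 63864175, minus strand), a receptor of A-type ephrins, had 523, 695, 655 and 558 normalised counts in control replicates 1 to 4 and 485, 383, 611 and 428 in TGFβ1FKO replicates 1 to 4. TGFβ1FKO replicate 3 lay above control replicates 1 and 4, and the other TGFβ1FKO libraries were below all controls (log2 fold change -0.36, SE 0.13, limma adjusted p = 0.597). *Efna1* had the largest difference of the ephrins, with a log2 fold change of -0.41 (limma adjusted p = 0.703). *Epha5* had the largest of the Eph receptors, -0.97, on 0 to 10 reads per library, with a 95% interval from -2.51 to 0.58, so that a difference was not detectable at this depth. The median log2 fold change was -0.03 over the 5 A-type ephrins and -0.13 over the 6 EphA receptors.

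Slits and netrins are secreted and bind to extracellular matrix. *Slit3* (ENSMUSG00000056427, chromosome 11, 35121224 to 35708507, plus strand), the member with the highest level, had 13385, 15671, 12329 and 15991 normalised counts in control replicates 1 to 4 and 14627, 17517, 17007 and 16136 in TGFβ1FKO replicates 1 to 4. TGFβ1FKO replicate 1 lay below control replicates 2 and 4, and the other TGFβ1FKO libraries above all controls (log2 fold change 0.19, SE 0.09, limma adjusted p = 0.668). *Slit2* had 3232, 4594, 3857 and 4972 in controls and 3835, 5112, 4696 and 4444 in TGFβ1FKO cells, with overlap of the groups and a log2 fold change of 0.13. *Slit1*, at 1.47 TPM in controls, had the largest log2 fold change of the Slits, 0.28 (limma adjusted p = 0.838). Of their receptors, *Robo1* had 653, 835, 776 and 969 in controls and 683, 1295, 994 and 975 in TGFβ1FKO cells. *Robo2* had 69.7, 83.9, 100.9 and 132 in controls and 79.1, 147, 80.5 and 114 in TGFβ1FKO cells. Both overlapped between the groups, and TGFβ1FKO replicate 2 was the highest library in each. *Robo3* differed by 0.55 on the log2 scale (limma adjusted p = 0.702) at a level of 0.560 TPM in controls.

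*Ntn4* (ENSMUSG00000020019, chromosome 10, 93640681 to 93747207, plus strand), a netrin of basement membranes that binds laminins, had 1117, 991, 961 and 819 normalised counts in control replicates 1 to 4 and 1009, 1137, 1223 and 1096 in TGFβ1FKO replicates 1 to 4. Control replicate 1 lay above TGFβ1FKO replicates 1 and 4 (log2 fold change 0.20, SE 0.09, limma adjusted p = 0.657). *Ntn1*, the classical netrin, had 857, 835, 827 and 1144 in controls and 928, 1116, 876 and 1028 in TGFβ1FKO cells, and control replicate 4 was the highest library of both groups. *Unc5b*, a netrin receptor and the most abundant Unc5 receptor here, had 3411, 3892, 4247 and 4007 in controls and 3673, 4378, 4094 and 4081 in TGFβ1FKO cells, with a log2 fold change of 0.06 (95% interval -0.09 to 0.22). *Unc5a* had 276, 266, 244 and 257 in controls and 240.2, 196, 259.9 and 276 in TGFβ1FKO cells, and *Unc5c*, the Unc5 receptor with the largest difference, a log2 fold change of -0.29 (limma adjusted p = 0.728). All groups of the Unc5 receptors overlapped.

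Several members that were higher in TGFβ1FKO cells had the same order among the controls. In *Plxna1*, *Plxna2*, *Plxnc1*, *Efnb1* and *Slit3*, 5 of the 7 higher members with an unadjusted p-value under 0.05, control replicates 1 and 3 both lay below control replicates 2 and 4. This order of the controls was found in 21 of the 51 members with a mean count of at least 50, or 41.2%, compared with 23.6% of 11561 genes of the table at that count. It was noted after the values had been seen, and its part in the differences between the genotypes was not tested. Reads were not separated by strand, and 4 members share exon bases with a gene on the other strand that is in the table. *Plxna1* shares 970 bases with *Gm26811* (72 reads over all libraries), *Sema4c* 334 with *D430040D24Rik* (146 reads), *Ephb4* 33 with *Zan* (69 reads) and *Epha1* 236 with *Zyx*, which had 102152 reads.

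Genes that act with these ligands and receptors were followed with a hand-written list of co-receptors, adhesion partners and intracellular effectors, of whose 91 genes 83 were in the table. Of these, 0 were called in limma's test (0.086% of the table) and 18, or 21.7%, were under 0.05 in the unadjusted p (7.46% of the table), 7 lower and 11 higher. The groups did not overlap in 6 (3.79% of the table), with *L1cam* lower and *Fyn*, *Mical1*, *Nck2*, *Rnd1* and *Rock2* higher, and the median log2 fold change of the 83 was 0.03. *L1cam*, a neural cell adhesion molecule that can join with neuropilin-1 and is also on the Schwann cell list, had 149.7, 186, 196 and 56.3 normalised counts in control replicates 1 to 4 and 47.6, 39.4, 45.7 and 43.2 in TGFβ1FKO replicates 1 to 4. It differed by -1.57 on the log2 scale (limma adjusted p = 0.126), and it was called by DESeq2's test against 0 and by limma without control replicate 4. Of the other adhesion molecules and secreted factors under 0.05 in the unadjusted p, *Nrcam* (-0.47 on the log2 scale) and *Draxin* (-0.42) were lower, and *Cntn2* (0.88) and *Flrt3* (0.40) higher. Of the intracellular effectors, the small GTPase *Rnd1*, which binds plexins, had a log2 fold change of 0.73 (limma adjusted p = 0.331). The chimaerins *Chn1* and *Chn2*, which inactivate Rac, had -0.49 and -1.09 (limma adjusted p = 0.648 and 0.632). *Chn2* had 10 reads or fewer in every library and 2 reads, under the limit of 3, in TGFβ1FKO replicates 1 and 4. The collapsin response mediators *Dpysl2* and *Dpysl3* had -0.19 and -0.18. The kinases *Fyn*, *Rock1* and *Rock2* had 0.17, 0.15 and 0.17, and *Ablim1*, *Farp2*, *Kalrn*, *Mical1* and *Sipa1l1* between 0.14 and 0.39. Highest per length were *Mmp14*, *Cfl1* and *Cdc42*, at 1104, 942 and 539 TPM, with log2 fold changes of -0.02, 0.03 and 0.02.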

How the data were processed

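RNA of control and TGFβ1FKO dermal fibroblasts was analysed from 1 table of 15111 genes and 8 libraries, grouped by the genotype in the labels, which give no batch. Per the submitters' processing notes, the tools were CASAVA 1.8, HISAT2 2.0.5, featureCounts 1.5.0-p3, R 4.3.2 and DESeq2 1.42.0, with the build GRCm38/mm10. The deposited normalised counts are a signal that is never negative, for which the authors left out genes with few reads, divided reads by size factors and added 0.5. After 0.5 was subtracted, 100% of the values of each library were whole reads within 0.1 of a read, and the lowest sum over 8 libraries was 41. The authors' own comparison columns (fold changes, statistics and p-values) were not used.

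Here log2(normalised count + 1) was compared between genotypes over all genes by limma 3.58.1 (R 4.3.3), with its variance trend on mean level. Recovered reads were tested with edgeR 4.0.16 and DESeq2 1.42.0 as alternatives, and values of single genes with two-sided exact permutation tests. The scripts were tested on simulated data. Exon lengths and coordinates came from the GENCODE annotation of GRCm38, in which 15098 of the 15111 genes of the table were found, and promoters from RefSeq. A floor of 3 reads covers counting error only. No pair of libraries within a group was a copy (lowest chi-square divided by its degrees of freedom, 4.81). Members, partner and marker lists, motifs and tests were chosen with earlier results of these data known. Named are members with an unadjusted p-value under 0.05, without overlap, called in an alternative, the 2 highest per length and the largest fold change of each family. *Sema3a*, *Sema4a*, *Sema4g*, *Sema5a*, *Plxnb1*, *Plxnd1*, *Epha1*, *Nck2*, *Plekhb1* and *Mal* were named outside this rule after their values had been seen. Some genes of the lists are not reported here by name.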

Additional observations from a re-analysis of the deposited data

Results flagged for a closer look

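Among 54 groups of 4 libraries tested (27 members in both genotypes), 3 held a library that stood far from the others of its group, where 2.7 are expected by chance at 1 in 20. *Sema3b* had 955 normalised counts in control replicate 4 against 764 to 796 in the other controls. *Ntn1* had 1144 normalised counts in the same library against 827 to 857 in the others. *Sema4c* had 339 normalised counts in TGFβ1FKO replicate 2 against 402 to 413 in the other TGFβ1FKO libraries.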

How the results depend on the processing

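The calls of single members were few and moved with the test. The number of genes called over the table was 13, and it was 20 with edgeR's quasi-likelihood test, 22 with edgeR and TMM, 56 with DESeq2 against 0 and 5 to 32 with 1 library left out (32 without control replicate 4, 7 without control replicate 1, 6 without control replicate 2, and 5 without control replicate 3, TGFβ1FKO replicate 2 or TGFβ1FKO replicate 4). The number of members called was 0, and it was 1 (*Sema4f*) with edgeR, edgeR with TMM, DESeq2 against 0 and DESeq2 against 0.6, and 0 to 1 with 1 library left out (1 without control replicate 4). Members at an unadjusted p-value under 0.05 numbered 13, and 7 to 17 with 1 library left out (7 without control replicate 3). Partner genes called numbered 0, with 1 in DESeq2 against 0 and 0 to 1 with 1 library left out (1 without control replicate 4). Correlations of same-numbered libraries across the genotypes were 0.156, -0.134, 0.0523 and 0.159, and 0 of 4 correlated best with its own number. Such low values cannot decide whether libraries of one number were handled together, which the labels do not state. With the replicate number as a block, 31 genes, 2 members (*Sema4f* and *Plxnb3*) and 2 partner genes (*L1cam* and *Cntn2*) were called. Members without overlap numbered 3, and 2 with TMM scaling. With 1 library left out the log2 fold change changed sign in *Sema3c* (-0.0999 to 0.141), *Nrp1* (-0.0866 to 0.0429), *Nrp2* (-0.00258 to 0.129), *Efnb2* (-0.0324 to 0.0910), *Ephb3* (-0.0480 to 0.0212) and *Robo2* (-0.0639 to 0.275). Pseudocounts of 0.5 and 5, a mean count of at least 10 and TMM scaling in limma left 0 members called. Apart from left-out libraries, what moved these values was not tested. Depth limits members with few reads, and 9 of the 60 had a mean count under 50.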
